A study of Mus musculus with 48 samples.

Results

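Gene expression in the spinal cord of 6-month-old mice without functional Tia1 was compared with that of wild-type (WT) mice of the same age. The comparison rests on 6 of the 48 arrays of the series, 3 from Tia1 knockout (KO) mice and 3 from WT mice, chosen by the tissue, genotype and age that the sample labels give. The other arrays hold spinal cord at 3 months and cerebellum, midbrain and liver at both ages, with 3 mice in each group. All mice carry the C57Bl/6 background, and the labels give 1 housing protocol and no treatment for all of them. The KO allele was made by homologous recombination in exon 4 and, by the study's methods, leaves a shortened Tia1 mRNA and no full-length protein, so every tissue carries the defect from conception on. The KO line had been backcrossed to C57BL6/J, and the study's methods give purchased C57BL6/J mice as controls, whereas the design text of the series calls the controls littermates. The KO mice are numbered 122970, 122972 and 122973 and the WT mice 1 to 3, with the same numbers used at both ages, and separate mice were assumed.

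TIA-1 is an RNA-binding protein that shuttles between nucleus and cytoplasm. In the nucleus it binds uridine-rich sequence behind weak 5′ splice sites and helps to include the exon, and in the cytoplasm it binds AU-rich elements of mRNAs and restrains their translation. When cells are stressed, it assembles through a prion-like domain into stress granules, which hold stalled mRNAs and exchange components with P-bodies, the sites of mRNA decapping and decay. Stress granules have drawn attention in spinal cord because proteins found in them are mutated or deposited in motor neuron disease.

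Expression was read on an Affymetrix 3′ array in log2 units, by groups of short oligonucleotides (probe sets), of which 1 gene may own more than 1. A difference was called where the Benjamini-Hochberg adjusted p of limma's moderated test, taken over 45037 probe sets, was under 0.05. A fold change with a minus sign is WT over KO. Hox genes, which mark the cord against the brain, averaged 6.27 to 6.34 in KO and 6.32 to 6.33 in WT arrays, against 2.71 in WT cerebellum and 2.69 in WT midbrain, and motor neuron markers were higher in the cord as well (7.45 to 7.77 in KO and 7.44 to 7.61 in WT, against 5.24 and 5.88). The 6 arrays correlated at 0.9948 to 0.9972 within groups and at 0.9948 to 0.9962 between KO and WT. In total, 73 probe sets differed (0.162% of those tested), 49 higher in KO cord (0.109%) and 24 lower (0.0533%), while 1708 probe sets (3.79%) had an unadjusted p under 0.05. The 50 called probe sets with a single gene symbol named 38 genes, 24 with a higher and 15 with a lower probe set, Tia1 being counted in both directions, and 23 carry no symbol in the platform annotation. As no label says more of the replicates than a mouse number, the p-values measure the spread between samples. That spread was pooled within the groups of all 48 arrays, other tissues included, and not taken from these 6 alone. With the 6 arrays fitted alone, 31 of the 73 calls were kept.

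Tia1 itself separated the groups in opposite directions along its transcript. The probe set at exon 4 read 5.44, 5.35 and 5.45 in the KO mice 122970, 122972 and 122973, against 7.55, 7.70 and 7.70 in the WT mice 1, 2 and 3. Every KO value lay far below every WT value, with means of 5.41 ± 0.06 in KO and 7.65 ± 0.09 in WT (SD, n = 3 each), a fold change of −4.72 (log2 −2.24, SE 0.13, adjusted p = 2.53e-15). Further 3′, at exons 9 to 11, the brightest probe set read 9.18, 9.14 and 9.02 in KO and 8.5, 8.34 and 8.41 in WT, 1.62-fold higher in KO (SE 0.07 on the log2 scale, adjusted p = 2.05e-08). Another was 1.76-fold higher (adjusted p = 1.69e-06) and the next 1.5-fold (adjusted p = 0.0173), whereas the dimmest of these exons read 1.36-fold and did not pass the test (adjusted p = 0.837). The 1.5-fold call was lost when WT 1, WT 2, WT 3, KO 122972 or KO 122973 was left out (adjusted p = 0.055 to 0.195). A dim probe set of no stated exon read 3.17, 3.31 and 3.44 in KO and 3.10, 3.19 and 3.10 in WT, with no call. The closest relative of TIA-1, TIAR, encoded by Tial1, is read by 4 probe sets, which differed between −0.05 and 0.04 (log2), none of them called.

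**Figure D1:**
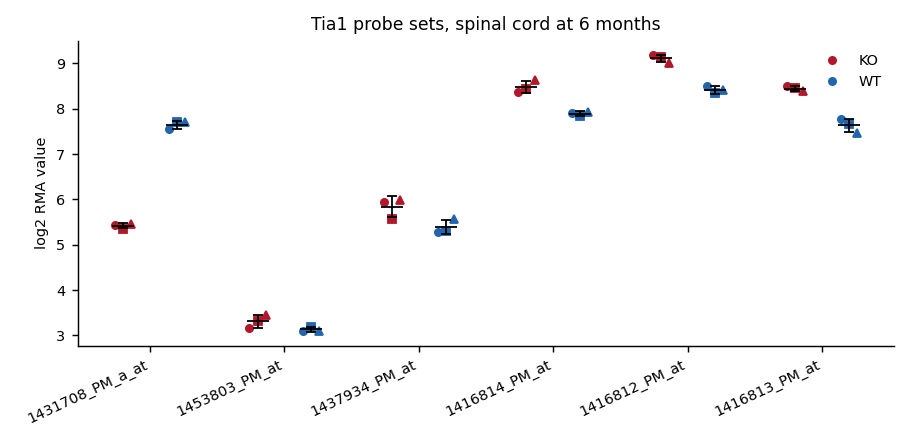
Log2 expression value of each of the 6 Tia1 probe sets in spinal cord at 6 months, KO mice in red to the left of WT mice in blue, with the mean and SD of 3 mice in black. The exon 4 probe set is near 5.4 in all KO mice and above 7.5 in all WT mice, while the 3 called probe sets at exons 9 to 11 are higher in every KO mouse.

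Outside Tia1, the rise with the smallest adjusted p was that of Wdfy1, which encodes a FYVE domain protein that binds phosphatidylinositol 3-phosphate on early endosomes. Its brightest probe set read 8.43, 8.49 and 8.45 in KO, against 6.78, 6.81 and 6.57 in WT cord, 3.32-fold higher in KO (log2 1.73, SE 0.17, adjusted p = 1.5e-08). The 3 KO values lay within 0.06 of each other and well above the WT values. The next probe sets gave 3.17-fold and 3.15-fold, and the dimmest gave 1.6-fold (adjusted p = 0.0478). That last call was lost when WT 1, WT 2, WT 3, KO 122972 or KO 122973 was left out (adjusted p = 0.0533 to 0.58) or the cord arrays were fitted alone (0.112), whereas the other 3 calls were kept without any single mouse of the 6.

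Several transcripts that glucocorticoids are known to induce stood higher in KO cord, among them the lipid droplet coat gene Plin4. It read 8.63, 7.79 and 7.93 in KO and 5.95, 6.47 and 7.11 in WT mice, with no overlap but a wide spread in both groups (3.05-fold, log2 1.61, SE 0.24, adjusted p = 0.000158). Angptl4, a secreted inhibitor of lipoprotein lipase, read 5.99, 5.88 and 6.03 in KO and 4.67, 4.07 and 5.20 in WT (2.5-fold, SE 0.19, adjusted p = 6.16e-05). In this gene the KO mice were alike and the WT mice spread over more than 1 unit. Cdkn1a, which encodes the cyclin-dependent kinase inhibitor p21, read 8.81, 8.20 and 8.29 in KO, against 6.88, 7.08 and 7.25 in WT, by its dimmer probe set (2.57-fold, adjusted p = 0.000756). The brighter Cdkn1a probe set was 2.48-fold higher (adjusted p = 0.00996). Sgk3, a kinase of endosomal membranes in the serum- and glucocorticoid-regulated family, read 9.15, 8.43 and 8.68 in KO and 7.75, 7.80 and 7.77 in WT by its brightest probe set (1.97-fold, adjusted p = 0.00188). Its relative Sgk1 did not differ, at 10.80, 10.45 and 10.95 in KO and 10.90, 10.51 and 10.53 in WT (log2 0.09, not called). A sulfotransferase for phenols, Sult1a1, was 1.6-fold higher (adjusted p = 0.0178). KO 122970 was the highest of the 3 KO mice in 24 of the 39 higher probe sets under the liver cut-off defined below, against 10 for KO 122972 and 5 for KO 122973. The 39 still hold transcripts brighter in WT liver than in WT cord, such as Angptl4 by 4.87 and Sult1a1 by 3.86 (log2). Without KO 122970 the calls of both called Sgk3 probe sets were lost (adjusted p = 0.0507 and 0.0712). The brighter Cdkn1a probe set was no longer called when KO 122970, WT 1 or WT 2 was left out, at adjusted p values of 0.0704 to 0.179, nor Sult1a1 without WT 1, WT 2, KO 122970 or KO 122973 (adjusted p = 0.0675 to 0.205) or with the 12 cord arrays fitted alone (0.127).

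Among other transcripts higher in KO cord, Dcp1b, a decapping factor of P-bodies, read 4.78, 4.71 and 4.47 in KO and 3.74, 3.82 and 3.53 in WT (1.94-fold, SE 0.16, adjusted p = 0.00169). The call rests on this probe set, since a brighter Dcp1b probe set read 5.39, 5.17 and 5.08 in KO and 5.29, 5.20 and 5.65 in WT, with no call. Dio2, the deiodinase that activates thyroid hormone in astrocytes, read 7.88, 7.51 and 7.80 in KO and 6.89, 6.88 and 7.12 in WT (1.7-fold, adjusted p = 0.00189). Ctla2a, which resembles the propeptide of cathepsins and inhibits such proteases, rose 1.72-fold and 1.67-fold by its 2 probe sets, the brighter of them reading 6.90, 6.76 and 6.64 in KO and 6.02, 5.99 and 6.06 in WT. In Dcp1b, Dio2 and Ctla2a the groups were separate by the called probe sets, which a call on these arrays makes likely. Iqgap2, a scaffold of the actin cytoskeleton, was 1.65-fold higher (adjusted p = 0.0024), and Diaph3, an actin-nucleating formin, 1.66-fold (adjusted p = 0.00364). The Iqgap2 probe set was also brighter in WT liver than in WT cord, by 5.6 (log2). Ddc, the aromatic amino acid decarboxylase of monoamine synthesis, read 8.35, 7.73 and 7.85 in KO and 7.19, 7.27 and 7.40 in WT (1.61-fold, adjusted p = 0.0173). Mgll, the lipase that degrades the endocannabinoid 2-arachidonoylglycerol, read 7.55, 7.63 and 7.41 in KO and 7.11, 7.08 and 6.94 in WT (1.4-fold, adjusted p = 0.0172), and Adipor2, an adiponectin receptor, was 1.41-fold higher (adjusted p = 0.0212). The brightest Mgll probe set read 1.27-fold without passing (adjusted p = 0.262). Another read 1.21-fold and the dimmest −1.16-fold, neither called. Smim3 (1.78-fold), Pglyrp1 (1.89-fold), Tedc2, a factor of centrioles (1.55-fold), and Greb1, known as an oestrogen-induced gene (1.54-fold), were higher as well. The calls of Dcp1b, Dio2, Iqgap2 and 1 of the 2 Ctla2a probe sets were kept without any single mouse. That of Diaph3 was lost without KO 122972 (adjusted p = 0.0699) and that of the brighter Ctla2a probe set without KO 122970 (adjusted p = 0.0693). Leaving out KO 122970 also ended the calls of Ddc, Mgll, Adipor2, Smim3, Pglyrp1, Tedc2 and Greb1, and so did leaving out WT 1 (Ddc, Adipor2, Pglyrp1, Tedc2, Greb1), WT 2 (all but Pglyrp1), WT 3 (Mgll, Adipor2, Smim3, Pglyrp1, Tedc2), KO 122972 (Mgll, Tedc2) or KO 122973 (Adipor2, Greb1), at adjusted p values of 0.0509 for Smim3 to 0.77 for Greb1. With the 12 cord arrays fitted alone, Iqgap2 (adjusted p = 0.169), Diaph3 (0.0959), Ddc (0.105), Mgll (0.112), Pglyrp1 (0.224), Tedc2 (0.0756) and Greb1 (0.355) were not called.

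**Figure D2:**
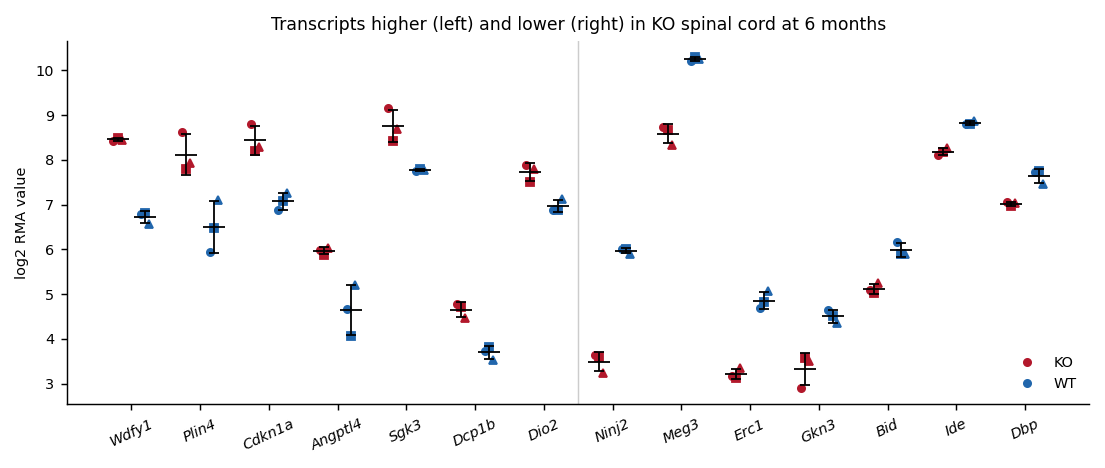
Log2 expression values of 14 transcripts called in spinal cord at 6 months, 7 higher in KO on the left and 7 lower in KO on the right, with KO mice in red left of WT mice in blue and the mean and SD of 3 mice in black. The groups do not overlap in any of the 14, which were picked from the called probe sets, and the WT mice spread most in Plin4 and Angptl4.

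Some transcripts made in liver were higher in KO cord, several of them mainly in 2 of the 3 KO mice. Alb, the serum albumin gene, read 5.76, 5.73 and 2.77 in KO mice 122970, 122972 and 122973, against 2.43, 2.49 and 2.58 in WT (4.77-fold, SE 0.41, adjusted p = 0.00317). Serpina1c, a mouse alpha-1-antitrypsin, read 4.38, 4.14 and 2.91 in KO and 2.75, 2.51 and 2.5 in WT (2.33-fold, adjusted p = 0.000303). KO 122973 was thus close to the WT level in both, and both are dim in the cord. The apolipoprotein gene Apoc3 (1.49-fold) and Bhmt, a methyltransferase of methionine synthesis (1.5-fold), showed the same order of mice. So did the probe set with the largest change of all, which has no symbol and read 9.46, 8.25 and 4.81 in KO and 4.12, 3.00 and 2.95 in WT (17.76-fold, adjusted p = 9.97e-05). Over the series, 405 probe sets were brighter in WT liver than in WT cord by at least 6 (log2), and 10 of them were called here, all higher in KO, 4 with a symbol. They were not alike: of the 6 without a symbol, 1 read 4.99, 5.37 and 4.85 in KO and 3.80, 3.79 and 3.97 in WT, high in all KO mice, and another 4.42, 5.0 and 5.36 in KO and 4.10, 4.11 and 3.70 in WT, highest in KO 122973. Apoc3, at 3.42, 3.18 and 3.00 in KO and 2.64, 2.52 and 2.73 in WT, was also above WT in KO 122973. The mean over these 10 was 4.65, 4.48 and 3.42 in KO and 2.94, 2.87 and 2.84 in WT, and the mean over all 405 was 3.08, 3.04 and 2.95 in KO and 2.88, 2.88 and 2.95 in WT. Of 30 liver marker genes, a list made after these values were seen, 4 were higher and none lower, 28 lay above 0, and the summed linear level ranged from 1586 to 1944 in KO and from 1697 to 1725 in WT, so the sums overlapped. Without the 405 probe sets, 60 probe sets were called, 38 higher and 22 lower. Alb lost its call without KO 122970 or KO 122972 (log2 1.75 and 1.77, adjusted p = 0.118 and 0.109) and read 3.24 without KO 122973, and the unnamed probe set ranged between 3.17 without KO 122970 and 5.5 without KO 122973. Apoc3 lost its call without KO 122970 (adjusted p = 0.0819) and Bhmt without WT 1, WT 3, KO 122970 or KO 122972 (adjusted p = 0.0852 to 0.281). Alb, Serpina1c and the unnamed probe set lost theirs when the 12 cord arrays were fitted alone with their own spread (adjusted p = 0.399, 0.193 and 0.218), as did Apoc3 and Bhmt (0.0597 and 0.184). Their source was not tested.

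**Figure D3:**
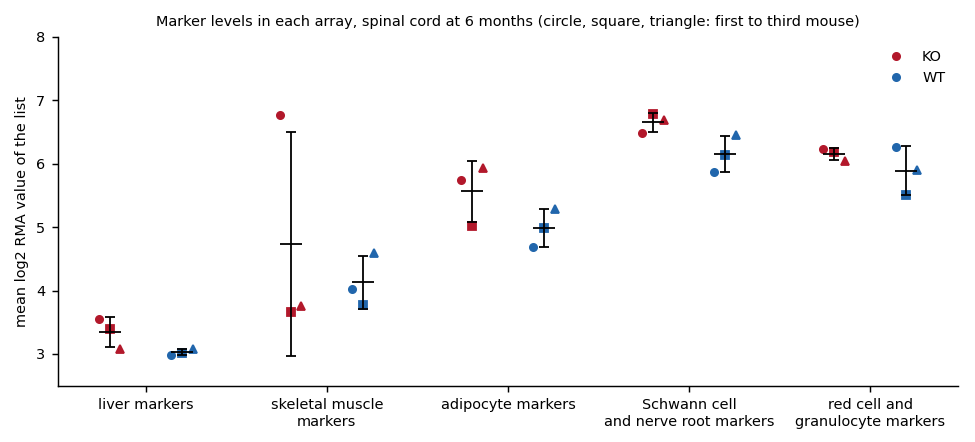
Mean log2 expression value of the genes of 5 marker lists in each of the 6 spinal cord arrays at 6 months, KO in red left of WT in blue, with the mean and SD of 3 mice in black. Liver markers are highest in KO 122970 and KO 122972, and skeletal muscle markers are at 6.77 in KO 122970, against 3.66 to 4.59 in the other 5 mice.

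The transcripts that fell were led by Ninj2, which encodes an adhesion molecule named for its rise in injured nerve. It read 3.63, 3.6 and 3.24 in KO and 6.00, 6.01 and 5.90 in WT (−5.56-fold, log2 −2.48, SE 0.11, adjusted p = 1.41e-18), so that the KO values were below the median of the arrays (4.25 to 4.28). Erc1, a scaffold of presynaptic active zones, read 3.18, 3.12 and 3.35 in KO and 4.68, 4.82 and 5.06 in WT by 1 probe set (−3.1-fold, adjusted p = 3.81e-11). Its other 3 probe sets read 0.11, 0.24 and 0.38 (log2) higher in KO, none called, so the fall was seen in 1 of 4 probe sets. Meg3, a long noncoding RNA transcribed from the maternal allele, showed the same kind of split. One of its 10 probe sets read 8.74, 8.67 and 8.34 in KO and 10.20, 10.29 and 10.25 in WT (−3.17-fold, SE 0.19, adjusted p = 6.95e-07), while the other 9 lay between −0.01 and 0.12 (log2) with no call. Gkn3, a gastrokine, read 2.91, 3.57 and 3.5 in KO and 4.64, 4.52 and 4.35 in WT (−2.26-fold, adjusted p = 0.0313), a call lost when WT 1, WT 2, WT 3, KO 122970 or KO 122973 was left out (adjusted p = 0.0512 to 0.378).

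Ide, the insulin-degrading enzyme, fell by 4 probe sets, between −1.48-fold and −1.96-fold. The brightest read 8.31, 8.33 and 8.34 in KO and 8.90, 8.87 and 8.92 in WT (SE 0.06, adjusted p = 4.77e-08), with a spread of 0.05 or less in each group. Bid, a BH3-only protein that carries death receptor signals to mitochondria, read 5.09, 5.03 and 5.25 in KO and 6.17, 5.90 and 5.89 in WT (−1.82-fold, adjusted p = 6.08e-06), and 2 dimmer Bid probe sets were not called. Dbp, a clock-controlled transcription factor that binds D-boxes, read 7.05, 6.97 and 7.03 in KO and 7.72, 7.74 and 7.46 in WT (−1.54-fold, adjusted p = 0.000303). The calls of Bid, Dbp and the 2 brightest Ide probe sets were kept without any single mouse, whereas the third Ide probe set was lost without WT 2 (adjusted p = 0.096) and the dimmest without WT 2 or KO 122970 (adjusted p = 0.0579 to 0.0886). Fgfr2, a receptor for fibroblast growth factors and a known splicing target of TIA-1, fell −1.61-fold by a probe set that read 6.08, 6.14 and 6.29 in KO and 6.90, 6.92 and 6.74 in WT (adjusted p = 0.00717). A brighter Fgfr2 probe set read −1.31-fold without passing (adjusted p = 0.496). Opalin, a membrane protein of myelinating oligodendrocytes, read 7.90, 7.83 and 7.47 in KO and 8.43, 8.30 and 8.15 in WT (−1.48-fold, adjusted p = 0.0325). Efcab12 (−1.7-fold), the adhesion molecule Chl1 by a dim probe set (−1.55-fold), Fgfbp3, which binds fibroblast growth factors (−1.48-fold), Sypl, related to synaptophysin (−1.41-fold), and the Cdc42 effector Cdc42ep4 (−1.39-fold) were lower as well. The brightest Chl1 probe set read 9.24, 9.24 and 9.44 in KO and 9.34, 9.21 and 9.08 in WT. The call of Efcab12 was kept without any single mouse, that of Chl1 was lost without WT 1 or KO 122972 (adjusted p = 0.0547 to 0.099), and those of Fgfr2, Opalin, Fgfbp3, Sypl and Cdc42ep4 were each lost without WT 1 and without WT 2. They were also lost without WT 3 (Fgfbp3, Cdc42ep4), KO 122970 (all but Opalin), KO 122972 (all but Cdc42ep4) or KO 122973 (Opalin, Sypl, Cdc42ep4), at adjusted p values of 0.0529 to 0.501. With the 12 cord arrays fitted alone, Sypl (adjusted p = 0.0596), Opalin (0.0943), Fgfbp3 (0.057) and the dimmest Ide probe set (0.0838) were not called. Among probe sets without a symbol, the strongest falls were −2.91-fold (adjusted p = 2.37e-06) and −2.07-fold (adjusted p = 0.000162).

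By chromosome, 10 of the 941 array genes of chromosome 6 (1.06%) had a called probe set, Tia1 included, against 28 of 15993 on the other chromosomes together (0.175%). Chromosome 12 had nearly the same share, 6 of 574 genes (1.05%), among them Serpina1c, Dio2, Greb1, Sypl and Meg3, and the remaining chromosomes had 0 to 0.528%. Counted along the chromosome in array genes from Tia1, Gkn3 lies at 18, Mgll at 39, Chl1 at 115 and Efcab12 at 173. Dcp1b follows at 201, Adipor2 at 204, Erc1 at 207, Ninj2 at 211 and Bid at 221, so all 9 lie on the same side of Tia1. Of these genes, 3 were higher and 6 lower in KO cord. Chromosome 6 genes within 200 array genes of Tia1, Tia1 left out, had a median difference of 0.000 (log2) and those farther away 0.010, against 0.011 over all 17097 genes. When the 1606 probe sets of chromosome 6 were left out, 55 probe sets were called, 40 higher and 15 lower.

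The same comparison at 3 months gave 140 called probe sets (0.311%). Of the probe sets called at 6 months, 30 (41.1%) were also called at 3 months in the same direction, 18 higher and 12 lower, which is 21.4% of the 3-month calls, and none was called in the opposite direction. The difference of the KO effect between the ages was tested directly and passed for 24 probe sets (0.0533%), of which 8 were called at 6 months. Wdfy1 was one of them, with a KO effect larger at 6 months by 1.28 (log2, SE 0.23, adjusted p = 0.0109). At 3 months the brightest probe set had read 8.56, 8.51 and 8.49 in KO and 7.81, 8.46 and 7.94 in WT, so that the WT mice at 6 months, all below 7, formed the low group and the KO level was alike at both ages. In Ide the odd group was again WT at 6 months. By the second brightest probe set the 3-month values were 8.12, 8.22 and 8.19 in KO and 8.27, 8.22 and 8.29 in WT, and the 6-month ones 8.11, 8.18 and 8.26 in KO and 8.81, 8.79 and 8.87 in WT (age difference −0.55, SE 0.09, adjusted p = 0.00276).

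Meg3 showed another order, since the called probe set read 10.27, 10.37 and 10.19 in KO and 10.28, 10.21 and 10.37 in WT at 3 months, and only the 3 KO mice of 6 months, at 8.34 to 8.74, were low (age difference −1.66, SE 0.27, adjusted p = 0.00238). The age difference of Meg3 was kept with the 12 cord arrays fitted alone (adjusted p = 0.00112), whereas those of Ide (adjusted p = 0.183 and 0.186) and Wdfy1 (0.079 and 0.219) were lost. Those of Wdfy1 were also lost without WT 3 of 6 months (adjusted p = 0.0581 and 0.0785). Mice were left out at 6 months only, so how far an age difference rests on a single mouse of 3 months was not tested. Plin4 and Angptl4 were higher in KO cord at 3 months as well (log2 1.81 and 1.2), and Dbp and Bid lower (−0.83 and −0.99), with age differences that did not pass. The other 16 age differences were in probe sets not called at 6 months, and the genes named from them were chosen after their values were seen. In 11 of the 16 the KO effect was the higher one at 3 months, and all 11 were called higher in KO at that age. Mmp8, a collagenase of neutrophils, read 5.09, 5.03 and 5.27 in KO and 3.10, 3.02 and 3.21 in WT at 3 months, and 3.42, 3.10 and 3.4 in KO and 3.24, 2.91 and 2.97 in WT at 6 months (age difference −1.75, adjusted p = 3.77e-06). In Mmp8 the KO mice of 3 months were the high group, as in Chil3 (−1.92), Chil4 (−2.06), Hemgn (−1.24) and Wfdc21 (−1.41). In Sgk1 (−1.51), Slc25a37 (−0.90) and Entpd4 (−0.90) the WT mice of 3 months were the low group. Of these differences, Chil3 was lost without WT 1 of 6 months (adjusted p = 0.0987). Among mice of that age, Chil4 was lost without WT 1, WT 3, KO 122972 or KO 122973 (up to 0.323). Sgk1 was lost without WT 1 or KO 122972 (up to 0.115). No mouse of 3 months, the age of the groups that stood apart, was left out. With the cord arrays fitted alone Mmp8 (0.00112) and Slc25a37 (0.0153) passed and the others did not. The reverse was seen in Nnt and Gabra2. Nnt, the mitochondrial transhydrogenase, read 7.03, 7.23 and 7.0 in KO and 8.21, 8.32 and 8.30 in WT at 3 months, and 7.05, 7.09 and 7.26 in KO and 7.13, 7.22 and 7.06 in WT at 6 months (age difference 1.18, adjusted p = 4.67e-06). Gabra2, a subunit of the GABA-A receptor, was at 7.14, 7.04 and 7.08 in KO and 7.23, 7.03 and 7.02 in WT at 6 months. By the same probe set it was at 7.37 to 7.51 in KO and 8.57 to 8.70 in WT at 3 months. Its age difference there (1.2, adjusted p = 0.0476) was lost when any single mouse of 6 months was left out (adjusted p = 0.0597 to 0.13). The other Gabra2 probe set had an age difference of 1.65 (adjusted p = 0.0109), lost without WT 3 (adjusted p = 0.0728), and both passed with the cord arrays fitted alone (adjusted p = 0.00112 and 0.00444). In these 2 genes the WT mice of 3 months were high.

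**Figure D4:**
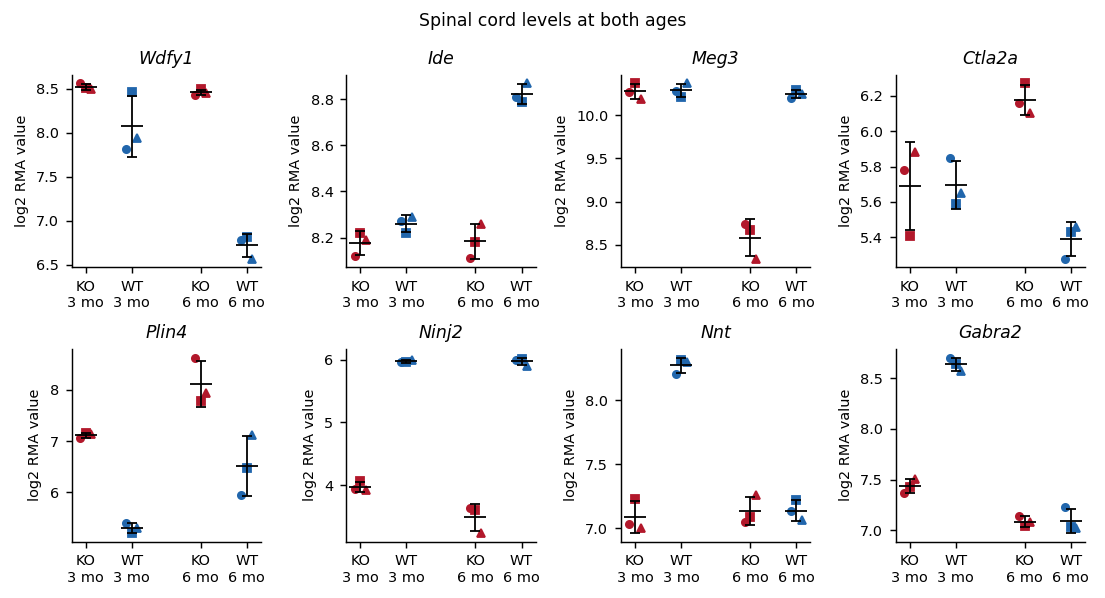
Log2 expression values of 8 transcripts in spinal cord, from left to right KO and WT at 3 months and KO and WT at 6 months, with the mean and SD of 3 mice in black and a separate vertical axis for each gene. WT at 6 months is the group apart in Wdfy1 and Ide, KO at 6 months in Meg3 and WT at 3 months in Nnt and Gabra2, while in Plin4 and Ninj2 KO and WT differ at both ages.

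Against cerebellum at 6 months, the KO effect of the cord differed for 8 probe sets (0.0178%), and against midbrain for 0, with 643 at an unadjusted p under 0.05. Ninj2 fell more in cord than in cerebellum, by a further 1.26 (log2) (adjusted p = 1.43e-05), and Erc1 fell less in cord, its KO effect being higher there by 2.87 (adjusted p = 1.2e-13). A probe set without a symbol had KO effects of opposite sign, −1.05 in cord and 1.26 in cerebellum (log2). The KO effect of Iqgap2 was 0.72 in cord and −0.24 in cerebellum (log2), and the difference between them, at an adjusted p of 0.0351, was lost without any single mouse of the cord (adjusted p = 0.0508 to 0.235). The difference of Serpina1c (adjusted p = 0.0288) was lost without KO 122970, KO 122972, WT 2 or WT 3 (up to 0.235). Wdfy1, Ide and Meg3 moved in the same direction in cerebellum and midbrain (log2 1.54 and 1.95, −0.62 and −0.61, and −1.80 and −1.57, by the probe sets given above, each called there), and in liver Wdfy1 was higher by 1.87 (adjusted p = 1.77e-10).

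Other genes that the study names from its arrays, as far as they carry a symbol here, were not called in the cord at 6 months by the rule used here. The study's rule differed, being a moderated F-statistic with decisions per contrast, and marked all of them but Inca1 as significant in this comparison. Nested F decisions gave 407 calls here in place of 73. By qPCR in cerebellum at the younger age, the study found Cntn4, Tbc1d24, Pnpla2, Ccnf, Tprkb and Inca1 changed in the direction of its arrays. Cntn4, a contactin, read 5.45, 5.66 and 6.01 in KO and 6.29, 6.48 and 6.09 in WT (−1.5-fold, adjusted p = 0.0785). Fgfrl1, a receptor-like protein of the fibroblast growth factor family, read −1.35-fold (adjusted p = 0.112), and Pnpla7, a lysophospholipase, 1.42-fold, with 6.48, 6.48 and 6.47 in KO and 5.88, 6.13 and 5.89 in WT (adjusted p = 0.112). Mfsd2a read 1.37-fold (adjusted p = 0.856), the brightest Tbc1d24 probe set 1.42-fold (adjusted p = 0.319), Ccnf 1.35-fold, Nde1 1.28-fold, Inca1 −1.15-fold and Tprkb, by the probe set that the study lists, 1.28-fold. By these probe sets the groups overlapped in Tprkb and in no other of the genes just given. How often the groups separate over all probe sets was not counted. These genes were chosen in the study on these arrays, so neither their direction nor the separation of the groups is independent evidence. Pnpla2, another gene that the study names, was not called either.

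For each pathway, members were counted by 1 probe set a gene, the one with the highest mean, of which 21 were higher (0.123% of 17097) and 10 lower (0.0585%). Over all these genes the median difference was 0.011 (log2), 54.5% lay above 0 and 4.51% had an unadjusted p under 0.05. None of 29 components of stress granules was called, and their differences ran from −0.24 to 0.12 around a median of 0.01 (log2). Of 23 P-body and mRNA decay factors none was called by this probe set, with a median of −0.00, the Dcp1b call above being on another one. Transcripts of proteins that share granules with TIA-1 thus stood near the median of all genes. The 11 measured splicing targets of TIA-1 had a median of −0.01 (log2), with 5 above 0 and 6 below. The list holds Tia1 itself, which was the 1 member called higher by this probe set (log2 0.70, at exons 9 to 11). None was called lower. Among 29 glucocorticoid receptor targets, the receptor gene Nr3c1 included, 5 were higher (Plin4, Angptl4, Cdkn1a, Sgk3 and Sult1a1) and none lower, and 28 lay above 0. The median was 0.28, against 0.61 in cord at 3 months and, at 6 months, 0.28 in cerebellum and 0.32 in midbrain. Fkbp5, the classical co-chaperone target, read 8.96, 8.09 and 8.34 in KO and 7.59, 7.65 and 7.67 in WT without passing (1.77-fold, adjusted p = 0.0989), and Nr3c1 read −0.27 (adjusted p = 0.13). In each KO mouse the list's mean level was above every WT mouse, at 8.34, 7.93 and 8.11 in KO and 7.71, 7.59 and 7.76 in WT. The 5 called genes are part of this mean, and the list was chosen with earlier results known. The separation is therefore no independent evidence.

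Of 25 genes of lipid droplet coats and lipolysis, Plin4 and Angptl4 were higher and none lower (median 0.16). The 19 genes of cholesterol synthesis and uptake held no call, with 16 below 0, the lowest being Mvd at −0.43, Hmgcs1 at −0.40 and Insig1 at −0.40. Their median was −0.15, as in cord at 3 months and in cerebellum and midbrain at 6 months. Among 21 clock genes, Dbp alone passed (median −0.11). Npas2, a partner of BMAL1, read 4.92, 4.89 and 5.11 in KO and 4.16, 4.41 and 4.61 in WT, and Ciart 6.03, 5.49 and 5.18 in KO and 6.19, 6.19 and 6.05 in WT, neither called. The heat shock and chaperone list held no call among 23 genes, though Hspa1b, a stress-inducible Hsp70, read 5.36, 7.04 and 6.73 in KO and 5.16, 5.34 and 5.65 in WT (adjusted p = 0.411).

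Few markers of cell types were called. Of 20 oligodendrocyte and myelin genes Opalin alone was called, and 18 lay below 0 with a median of −0.20, against 0.01 at 3 months, and −0.13 without KO 122970. At 6 months the median was also below 0 in cerebellum (−0.12) and midbrain (−0.16). In cord the mean level of the list was 9.36, 9.43 and 9.42 in KO and 9.58, 9.65 and 9.50 in WT. Of 20 microglia and macrophage genes none passed, 17 lay below 0 and the median was −0.20, against −0.10 in cerebellum and in midbrain. The purinergic receptor gene P2ry12 read 7.12, 7.42 and 7.19 in KO and 7.63, 7.63 and 7.65 in WT cord (adjusted p = 1). Motor neuron markers had a median of −0.00 over 17 genes and astrocyte markers −0.03 over 19, Dio2 being the single call among astrocyte genes. In whole tissue, fewer cells of a type and less RNA per cell cannot be told apart.

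Markers of tissue that adjoins the cord varied more between mice. Of 12 Schwann cell and nerve root genes none was called, 11 lay above 0 and the median was 0.43, with summed linear levels of 3902 to 4502 in KO and 2927 to 3996 in WT. Skeletal muscle markers had a median of 0.63 over 18 genes with no call, and this rested on KO 122970, without which it was −0.36. Their summed linear level was 3666 in KO 122970, against 1171 and 1331 in the other KO mice and 1226 to 1463 in WT. Adipocyte markers summed to 3012 to 4072 in KO and 2945 to 3428 in WT, and red cell and granulocyte markers to 18304 to 19890 in KO and 16248 to 18504 in WT, none of them called. The part of these tissues in the calls above was not tested.

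**Figure D5:**
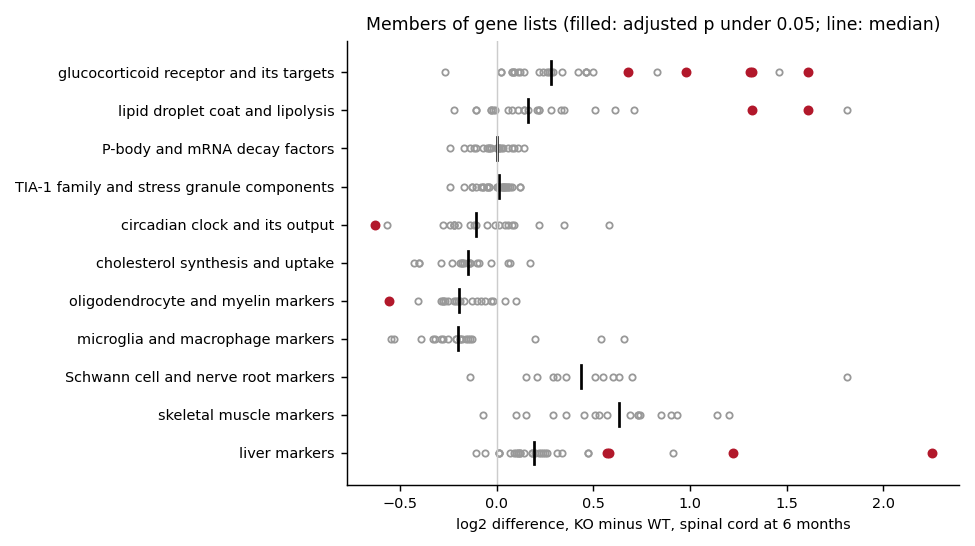
Log2 difference between KO and WT spinal cord at 6 months for each measured gene of 11 lists, by its brightest probe set, with called genes filled in red and the median of each list as a black line. The glucocorticoid list has 5 called genes, all higher, and the liver list 4, while stress granule and P-body genes gather around 0.

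Promoter sequence was read for 33 of the 38 called genes (41 windows, the 250 bases before each start, from RefSeq on GRCm38.p6), to show which hold the D-box that Dbp binds, the E-box of the clock, or the glucocorticoid receptor's half-site. The D-box (TTATGTAA, either strand) lies in 4.88% of these windows and in 0.819% of all 32851, the E-box (CACGTG) in 4.88% and 6.02%, and the half-site (AGAACA, either strand) in 9.76% and 16.1%. The glucocorticoid palindrome lies in none of the 41, and in 0.00913% of all windows. These shares are descriptions of a few windows, and a match is no evidence of a bound site. The D-box windows belong to Gkn3, lower in KO cord, and Alb, which holds 2. The E-box windows belong to Ninj2, lower, and Mgll, higher, and Sult1a1 is shown for the half-site, which Ctla2a, Mgll and Serpina1c hold too. The stretches below give the match in capitals with up to 30 bases on each side, on the strand of the gene, the numbers being the first base of the match before the start.
Gkn3, D-box at −43, chr6:87388941-87389008, minus strand: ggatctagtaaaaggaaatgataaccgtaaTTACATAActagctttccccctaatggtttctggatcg
Alb, D-box at −223, chr5:90460620-90460684, plus strand: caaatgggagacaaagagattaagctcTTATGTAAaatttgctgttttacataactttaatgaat
Ninj2, E-box at −142, chr6:120093208-120093273, plus strand: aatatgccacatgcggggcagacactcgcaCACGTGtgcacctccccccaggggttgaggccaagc
Mgll, E-box at −44, chr6:88724338-88724403, plus strand: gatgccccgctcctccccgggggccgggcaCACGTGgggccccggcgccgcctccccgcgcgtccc
Sult1a1, half-site at −34, chr7:126676419-126676482, minus strand: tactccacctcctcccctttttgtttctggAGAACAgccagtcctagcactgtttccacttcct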

How the data were processed

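The log2 values are those the authors deposited. They ran RMA (Robust Multichip Average) under R 2.14.0 (background correction, quantile normalization, summarization per probe set), and no scanner intensities were used here. Of 45141 probe sets, 104 controls were left out. Gene symbols came from the platform annotation (28898 probe sets with 1 symbol, 551 with several, 15588 with none), and positions and promoters from RefSeq tables of GRCm38.p6. With limma 3.58.1 in R 4.3.3, the 16 group means were fitted over all 48 arrays, the KO minus WT difference in spinal cord at 6 months was taken, with variances shrunk by empirical Bayes (prior 4.97, residual 32 degrees of freedom). Differences between ages and tissues were contrasts of the same fit. Tables were made in Python 3.11.15. Precision is limited by 3 arrays a group, whose median SD was 0.12 (log2).

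The steps were tested on simulated data. Members, lists and tests were chosen with earlier results of these data known. The text names all Tia1 probe sets, the 15 genes with the largest change in each direction among called ones, genes the study names, up to 4 members of a list, the largest called age or tissue differences, and called chromosome 6 genes near Tia1. Others were chosen after their values were seen, and 1 called gene is not reported here. The liver list was made, and 2 genes that nervous tissue also expresses were taken out of it, after values had been seen. Alternatives were fewer arrays in the fit, a filter on dim probe sets, another normalization, prior or decision rule, array weights, the mouse as a replicate block (KO and WT share no mouse number, and the consensus correlation over tissues was 0.0303), stricter thresholds and leaving out each mouse. Only the cord arrays of 6 months were left out in this way. Leaving out liver transcripts or chromosome 6 was chosen after seeing the data.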

Additional observations from a re-analysis of the deposited data

Results flagged for a closer look

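Differences of the KO effect between ages or tissues, each tested as a contrast in limma, mark 13 probe sets called in the cord at 6 months. Between 6 and 3 months the KO effect differed by −1.66 (log2) for Meg3, by −0.55 and −0.5 for the 2 brightest Ide probe sets, and by 1.28 and 1.21 for 2 Wdfy1 probe sets. Among probe sets without a symbol, the one with the largest KO effect at 6 months (log2 4.15) differed by 5.14, with 3-month values of 3.84, 4.92 and 4.06 in KO and 4.59, 4.15 and 7.06 in WT, and this was lost with the cord arrays fitted alone (adjusted p = 0.436). A second, at 8.76, 8.79 and 8.72 in KO and 8.17, 8.21 and 8.07 in WT, differed by 0.6. This was lost when any single mouse of 6 months was left out (adjusted p = 0.0614 to 0.161) or the cord was fitted alone (0.11). Another, at 9.04, 9.10 and 8.96 in KO and 8.42, 8.43 and 8.48 in WT, differed by 0.57. This was lost without KO 122972 of 6 months (adjusted p = 0.0602) or with the cord alone (0.219). Between spinal cord and cerebellum at 6 months the KO effect differed by −2.31 for the unnamed probe set of opposite signs, −1.26 for Ninj2, 0.96 for Iqgap2, 1.47 for Serpina1c and 2.87 for Erc1.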

How the results depend on the processing

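The 73 calls became 38 with the 6 arrays alone, 173 with array weights, 36 with 1 probe set a gene and 407 by the nested F decisions, and 49 to 78 without single mice. The 24 age differences became 6 with the cord fitted alone, 93 with array weights and 11 at an adjusted p under 0.01, and 18 to 31 without single mice. The 8 differences from cerebellum became 29 with array weights and 4 at an adjusted p under 0.01, and 4 to 11 without single mice, and the 0 from midbrain became 1 with array weights, and 0 to 5 without single mice, the 5 being without KO 122973. Under the mouse as a replicate block these 4 counts were 74, 24, 8 and 0. No pairing of KO with WT mice was possible, because they share no number. Of the 73 probe sets, 43 kept their call with the 12 cord arrays alone, 31 with the 6 arrays alone and 32 without any single mouse, and the replicate block changed none of them. No called difference turned its direction under any alternative run. Signals of 13 called probe sets were below the array medians in both groups, where folds are uncertain.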
